A study of Mus musculus with 7 samples.

Results

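Splicing factors of the SR family and their relatives were followed here through their own transcripts: Srsf5, Srsf10, Srrm2, Thrap3 and Bclaf1, every event of which was taken from the authors' deposited table by gene name. This gave 9 of the 278 alternative splicing events listed, 4 in Srrm2, 2 in Bclaf1 and 1 in each of the other 3 genes. The table gives percent spliced in (PSI), the share of reads at an event, in percent, that come from its inclusion form, in RNA-seq libraries of mouse incisor cervical loop epithelium, the growing end of the tooth where dental epithelial progenitors reside. All 7 libraries carried the K14CreER;Srsf1fl/fl genotype at 8 to 10 weeks of age. In these mice a tamoxifen-inducible Cre recombinase under the keratin 14 promoter, which is active in epithelium, can delete loxP-flanked Srsf1 sequence. The 3 control libraries (replicates 1, 2 and 7) came without tamoxifen induction and the 4 mutant libraries (replicates 3, 4, 5 and 9) after it, so tamoxifen and the Srsf1 deletion cannot be told apart. The labels do not tie libraries to animals, so the spread between libraries, and the p-values that rest on it, may be technical.

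SR proteins bind exons through RNA recognition motifs and recruit the splicing machinery through domains rich in alternating arginine and serine. SRSF5 is a classical member and SRSF10 an atypical one that changes activity with its phosphorylation. SRRM2 is a very large scaffold protein of nuclear speckles, while THRAP3 and BCLAF1 are 2 proteins related to each other that associate with RNA processing and mRNA export complexes. Many genes of this class carry exons or introns whose inclusion places a stop codon far upstream of an exon junction, which marks the transcript for nonsense-mediated decay and lowers the amount of protein made. Such an exon is called a decay exon below. The label of the group was checked on the coding sequences of GENCODE M21, a mouse annotation of GRCm38. Adjacent arginine and serine codons, in either order, numbered 48 in the 269 codons of Srsf5, 42 in the 262 of Srsf10, 318 in the 2703 of Srrm2, 64 in the 951 of Thrap3 and 62 in the 919 of Bclaf1.

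In the epithelium after induction, 8 of the 9 events fell and 1, the decay exon of Thrap3, rose. By limma on PSI over all 278 events, with a Benjamini-Hochberg adjusted p of 0.05 as the limit, 9 of 9 passed, beside 95.7% of all events. Falls passing that limit made up 78.8% of all events and rises 16.9%. The groups were fully separated in 8 of the 9, again beside 95.7% of all events. The 9 events were selected on the same contrast: the table lists only events with a corrected DRIMSeq p below 0.1 between these control and mutant libraries, up to 0.0979, and the genes were chosen by their listing there, so nothing is read from these counts. In the authors' deposited table the corrected DRIMSeq p of the members lay between 0.000154, for the Bclaf1 decay exon, and 0.0519, for the Srsf10 last exon. It was below 0.05 for 7 of the 9, against 77.0% of all events. The second test of that table, from JuncBASE, gave corrected p-values from 0.182 to 1 for the members, with 0 of 9 below 0.05 against 1 of the 278 events. The raw JuncBASE p of the members lay between 0.00113, for the Bclaf1 decay exon, and 0.0659, for the Srrm2 decay exon. The median absolute difference of mean PSI was 13.8 percentage points over the members and 14.1 over all events. Differences below are mutant minus control with the limma standard error (SE), and no member's p-value is used as support.

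Facts of the whole table bear on every value. The targeted gene has 1 listed event, a junction from the end of Srsf1 exon 1 past the end of the gene into the region of the next gene on the same strand, Vezf1, at 7.97% ± 2.12 (SD, n = 3) in the controls and 62.9% ± 17.3 (SD, n = 4) in the mutants. Among the mutants this junction was lowest in library 4 and highest in library 5. No read number accompanies a PSI value, so its depth is unknown and no counting interval can be given. Expression levels are not part of the table, so the tissue could not be checked against its markers, and none of 18 marker genes of epithelium, ameloblasts, mesenchyme, blood and endothelium has a listed event. In bulk tissue a change of PSI within cells and a change in the mix of cells cannot be told apart, nor can fewer cells of a type and less RNA per cell. PSI is also measured on the RNA that remains, so splicing into a decay exon and the decay that follows cannot be told apart.

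Of the 5 cassette exons listed for these genes, 3 were decay exons. Of the 173 cassette exons in the table, 6 occur in GENCODE M21 only in transcripts annotated for nonsense-mediated decay, in 6 genes, and 3 of the 6 belong to Thrap3, Bclaf1 and Srrm2. In each of these 3, the reading frame of the coding transcript was carried into the exon, and it met a stop codon at the position annotated in the decay transcript. Those of Thrap3 and Bclaf1, which moved in opposite directions, are printed below 5′ to 3′ with that stop codon in capitals, because the stop is what separates them from coding exons. The Thrap3 exon has 193 nucleotides at chr4:126173137-126173329 (GRCm38, minus strand), between exons 7 and 8 of 11. The Bclaf1 exon has 162 nucleotides at chr10:20332396-20332557 (plus strand), between exons 9 and 10 of 13. The Srrm2 exon lies between exons 9 and 10 of 15.
Thrap3 decay exon: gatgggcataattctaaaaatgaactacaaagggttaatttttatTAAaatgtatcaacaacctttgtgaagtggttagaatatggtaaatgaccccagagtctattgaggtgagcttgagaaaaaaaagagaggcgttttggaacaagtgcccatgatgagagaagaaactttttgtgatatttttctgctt
Bclaf1 decay exon: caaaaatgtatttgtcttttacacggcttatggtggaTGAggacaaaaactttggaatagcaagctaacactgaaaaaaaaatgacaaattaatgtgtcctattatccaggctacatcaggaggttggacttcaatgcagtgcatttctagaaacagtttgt

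The stop codon begins at base 46 of the Thrap3 exon and at base 38 of the Bclaf1 exon. From the stop to the 3′ end of its exon there are 145 nucleotides in Thrap3 and 122 in Bclaf1, and a further exon junction follows in each annotated decay transcript. Ahead of the exon, 702 complete codons of 951 have been read in Thrap3 and 737 of 919 in Bclaf1. The Bclaf1 exon has a length divisible by 3 and the Thrap3 exon does not, so length alone would not have marked the former as ending the reading frame. G and C made up 34.2% of the Thrap3 exon and 35.8% of the Bclaf1 exon, against medians of 52.6% and 51.8% over 5566 and 9674 internal exons of like length (within 5 nucleotides) in protein-coding genes of GENCODE M21.

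**Figure D1:**
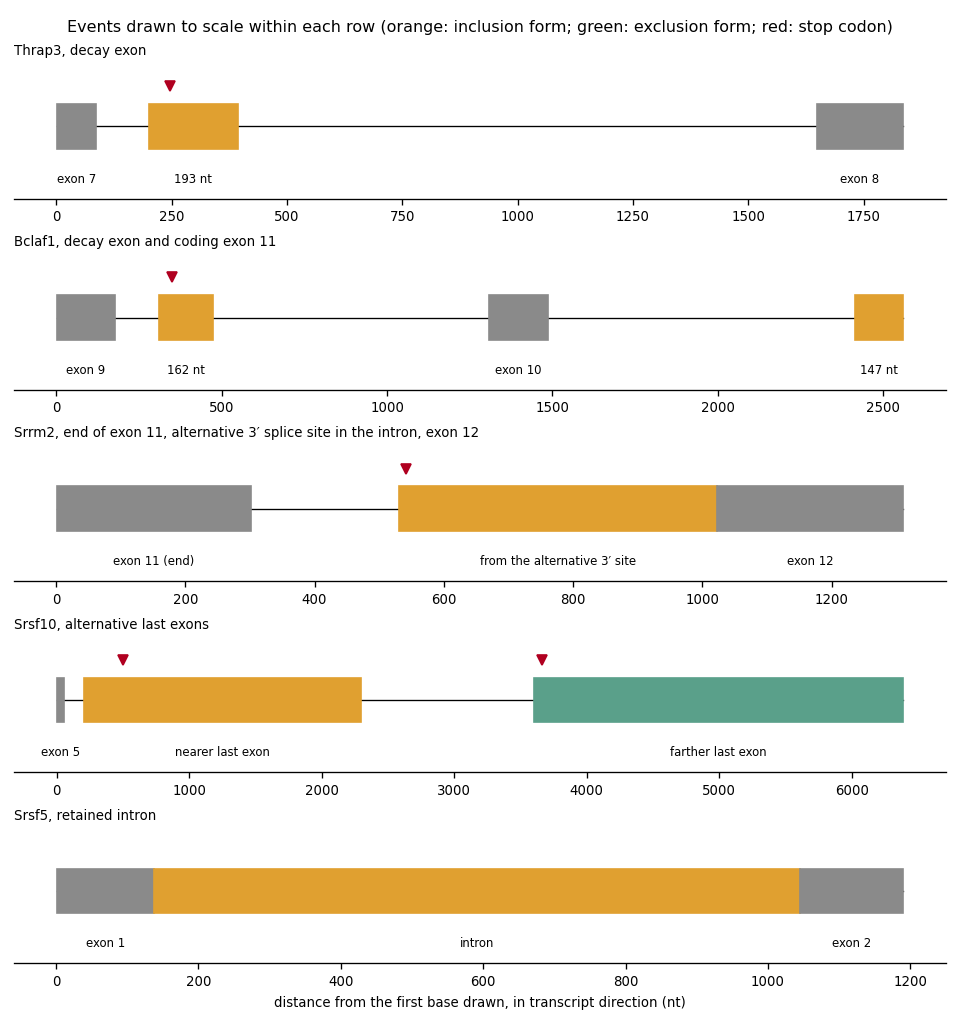
Maps of the events in Thrap3, Bclaf1, Srrm2, Srsf10 and Srsf5, each row to scale along the transcript in nucleotides from the first base drawn; grey boxes are flanking exons, orange boxes the inclusion form, the green box the exclusion form of Srsf10, and red triangles stop codons. The stop codons of the Thrap3 and Bclaf1 decay exons stand near the 5′ end of each exon, 46 and 38 bases in.

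The Thrap3 decay exon was used more in the mutants. Its PSI was 13.8%, 12.4% and 15.2% in control libraries 1, 2 and 7, and 20.8%, 22.9%, 34.5% and 32.2% in mutant libraries 3, 4, 5 and 9. All 4 mutants lay above all 3 controls, and they fell into a lower pair, 3 and 4, and a higher pair, 5 and 9. The mean was 13.8% ± 1.40 (SD, n = 3) and 27.6% ± 6.78 (SD, n = 4), a ratio of 2.00 and a difference of 13.8 points (SE 3.59).

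The Bclaf1 decay exon moved the other way. It stood at 21.5%, 22.6% and 26.4% in controls 1, 2 and 7 and at 8.27%, 5.73%, 9.64% and 12.5% in mutants 3, 4, 5 and 9, without overlap. The mean fell from 23.5% ± 2.56 (SD, n = 3) to 9.04% ± 2.82 (SD, n = 4), a ratio of 0.385 and a difference of −14.4 points (SE 2.28). The skipped form, which keeps the reading frame open at this place, thus made up 76.5% of the event in controls and 91.0% in mutants. For Thrap3 the skipped form went from 86.2% to 72.4%.

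In Srrm2 the decay exon also fell, but with overlap. Controls 1 and 2 had 26.6% and 26.8%, control 7 only 14.5%. Mutants 3, 4, 5 and 9 had 6.42%, 6.62%, 15.6% and 10.9%, so mutant 5 lay above control 7 and the rest below all controls. The mean was 22.6% ± 7.02 (SD, n = 3) and 9.87% ± 4.32 (SD, n = 4), with a difference of −12.8 points (SE 3.71). The difference of medians was larger, at −17.8 points, with control 7 standing apart from controls 1 and 2. Without control 7 or without mutant 5 the groups did not overlap.

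The other 3 decay-only cassette exons of the table, in genes outside the group, are given for comparison. Those of Npepps, an aminopeptidase gene, and Phf14, a gene for a PHD finger protein, rose from means of 1.94% to 8.99% and from 3.36% to 10.7%, and that of Lsm5, a gene of an RNA-binding ring complex, fell from 93.9% to 81.9%. The Lsm5 exon differs in kind: it is included in most reads, and the stop codon of its decay transcript does not lie in it, whereas in the other 5 it does. Of those 5, 3 rose and 2 fell. The exons of Thrap3, Bclaf1 and Srrm2 had control means of 13.8%, 23.5% and 22.6%, so the decay form was already present without induction.

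Beside its decay exon, Bclaf1 had a second listed exon, exon 11, which is coding. It has 147 nucleotides at chr10:20334499-20334645 (GRCm38, plus strand) and begins 1941 bases past the decay exon, with the 181-nucleotide exon 10 in between. Its 49 codons make the difference between the annotated proteins of 919 and 870 residues, and no stop codon interrupts them. The sequence is shown since its inclusion adds protein, unlike that of the exons above.
Bclaf1 exon 11: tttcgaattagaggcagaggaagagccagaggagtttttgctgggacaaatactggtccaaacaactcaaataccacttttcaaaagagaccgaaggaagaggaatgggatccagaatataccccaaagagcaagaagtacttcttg

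Inclusion of Bclaf1 exon 11 was 68.3%, 79.9% and 86.1% in controls 1, 2 and 7 and 52.7%, 53.7%, 57.5% and 62.5% in mutants 3, 4, 5 and 9. The controls were more widely spread than the mutants and still lay above every one of them. The mean fell from 78.1% ± 9.04 (SD, n = 3) to 56.6% ± 4.41 (SD, n = 4), a difference of −21.5 points (SE 4.33), the largest among the 9 events and rank 26 of 173 cassette exons by size. The skipped form, coding for the shorter protein, was 21.9% in controls and 43.4% in mutants. Both Bclaf1 exons therefore fell, one that ends the reading frame and one that extends it. Control 7 was the highest and control 1 the lowest control in both exons, and mutant 9 was the highest and mutant 5 the next mutant in both. The effect of the 2 changes on the amount of full-length protein cannot be read from the table, which does not say whether reads from both exons came from the same molecules.

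**Figure D2:**
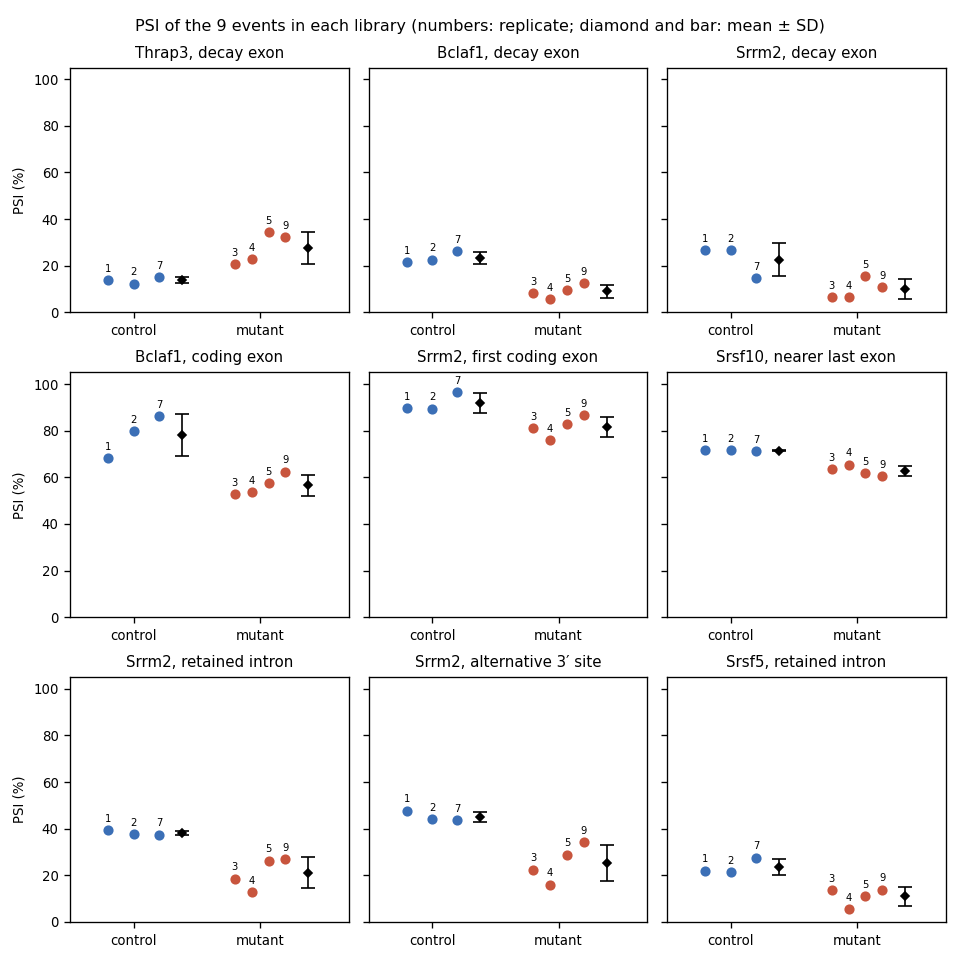
PSI in percent of the 9 events in each of the 3 control (blue) and 4 mutant (red) libraries, with the replicate number at each point and the group mean ± SD beside the points. The Thrap3 decay exon is the 1 event with mutants above controls, and the Srrm2 decay exon the 1 event where the groups overlap.

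Srrm2 had 4 events, spread from its second exon to the intron after exon 11. Exon 2, of 271 nucleotides at chr17:23806932-23807202 (GRCm38, plus strand), carries the start codon of the longest annotated protein after 29 untranslated bases. Transcripts without it begin translation at a start codon in the next exon, 96 codons further on and in the same frame, and give 2607 instead of 2703 residues. Its inclusion was 89.6%, 89.4% and 96.6% in controls 1, 2 and 7 and 81.1%, 76.0%, 82.7% and 86.6% in mutants 3, 4, 5 and 9. The groups did not overlap, although mutant 9 came within 3 points of control 2. The mean fell from 91.9% ± 4.11 (SD, n = 3) to 81.6% ± 4.40 (SD, n = 4), a difference of −10.3 points (SE 3.03), and the form without the upstream start codon was 8.14% in controls and 18.4% in mutants.

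The remaining Srrm2 pair lies in a single intron of 722 nucleotides, chr17:23821691-23822412, directly after exon 11, which at 6569 nucleotides holds most of the coding sequence. One event is retention of that intron. The other is an alternative 3′ splice site 230 bases into it, after which the remaining 492 bases are kept as exon. A GENCODE M21 transcript annotated for decay uses this 3′ splice site and then removes the rest of the intron, leaving an exon of 95 nucleotides at chr17:23821921-23822015. In the frame of the coding transcript, after 2531 complete codons of 2703, this exon starts with a stop codon at base 11, shown in capitals because it links the splice site to decay.
Srrm2 exon from the alternative 3′ splice site: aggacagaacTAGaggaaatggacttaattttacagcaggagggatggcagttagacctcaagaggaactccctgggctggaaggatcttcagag

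Retention of the Srrm2 intron was 39.3%, 37.6% and 37.5% in controls 1, 2 and 7 and 18.5%, 12.9%, 26.3% and 26.9% in mutants 3, 4, 5 and 9. Controls were within 2 points of each other, while the mutants were widely spread, with mutant 4 lowest and all below the controls. The mean fell from 38.1% ± 1.03 (SD, n = 3) to 21.1% ± 6.67 (SD, n = 4), a difference of −17.0 points (SE 3.52). The PSI of the alternative 3′ splice site event was 47.7%, 44.0% and 43.8% in controls 1, 2 and 7. In mutants 3, 4, 5 and 9 it was 22.5%, 15.9%, 28.9% and 34.1%. The mean of this PSI fell from 45.2% ± 2.18 to 25.3% ± 7.88 over the same libraries, a difference of −19.8 points (SE 4.10). Reads of the retained intron may be part of it, so it is not read as use of that site alone.

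These events are not separate measurements. Both are set against reads of the same spliced junction, and the inclusion forms of both run across the 3′ end of the intron. Which reads at that boundary were counted for each event is not known here. In each library the alternative-site PSI exceeded the retention PSI, by 6.29 to 8.34 points in the controls and 2.63 to 7.25 points in the mutants, and the order of the mutants was 4, 3, 5, 9 from low to high in both. The complete intron was contained in 0 annotated transcripts of Srrm2. Correct removal of the whole intron, the form with the full coding sequence, rose from 61.9% to 78.9% by the retention event and from 54.8% to 74.7% by the splice site event. In Srrm2 the 3 events linked to decay or retention and the exon with the upstream start codon all fell.

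**Figure D3:**
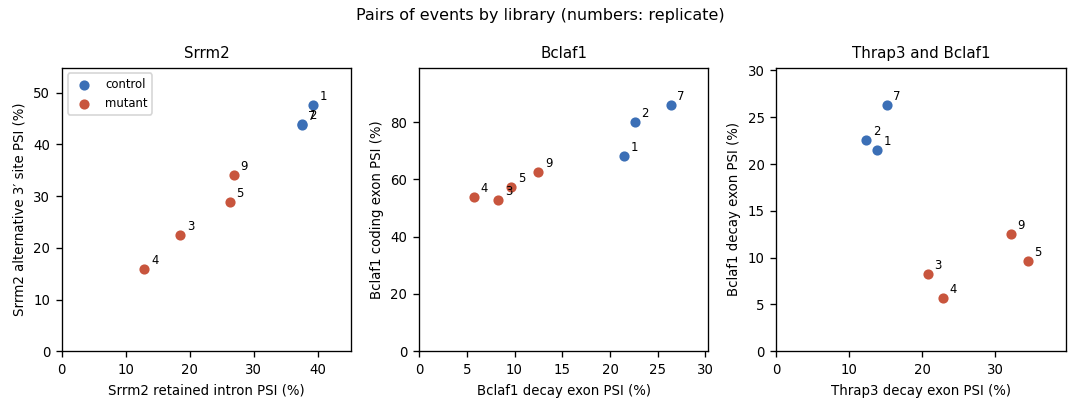
PSI in percent of pairs of events, 1 point per library (blue, control; red, mutant; numbers, replicate): the Srrm2 retained intron and alternative 3′ splice site, the decay and coding exons of Bclaf1, and the decay exons of Thrap3 and Bclaf1. In the first pair, mutants 4, 3, 5 and 9 follow each other in both events; in the last, mutants lie at higher Thrap3 and lower Bclaf1 values than every control.

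The same arrangement, a retained intron and an alternative splice site set against a shared junction, was also listed for Dnajc7, a co-chaperone gene. Its retention was 21.9% ± 0.511 (SD, n = 3) in controls and 7.45% ± 5.37 (SD, n = 4) in mutants. Its alternative 5′ splice site, listed under the joined name Dnajc7Sfi1, was 27.6% and 9.60% on average. The differences were −14.4 and −18.0 points in Dnajc7 beside −17.0 and −19.8 in Srrm2. All 4 events fell, and no test of a difference between the genes was made.

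Srsf5 contributed a retained intron near its start. The intron, chr12:80945669-80946575 (GRCm38, plus strand), has 907 nucleotides, lies in the 5′ untranslated region and ends 19 bases before the start codon in exon 2. Retention was 22.0%, 21.3% and 27.6% in controls 1, 2 and 7 and 13.5%, 5.38%, 11.1% and 13.9% in mutants 3, 4, 5 and 9. Every mutant was below every control, with mutant 4 well below the others. The mean fell from 23.6% ± 3.44 (SD, n = 3) to 10.96% ± 3.92 (SD, n = 4), a ratio of 0.464 and a difference of −12.7 points (SE 2.75). Of the 17 retained introns listed, 11 fell and 6 rose, and the Srsf5 change ranked 15 among the 17 by size.

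The name of this Srsf5 event needs a limit that comes from the annotation. The listed intron starts at the first of several 5′ splice sites that join the same exon 2. In GENCODE M21, 2 Srsf5 transcripts use the listed site, 7 use a site 4 bases further on and 2 a site 130 bases further on. The boundary at the start of the listed intron is therefore crossed both by RNA that keeps the intron and by spliced RNA from the later sites, and the complete intron was contained in 0 annotated transcripts. How the authors' count treated such reads is not stated, so less retention and more use of the first 5′ splice site cannot be told apart here. The boundary is printed below with the first 2 bases after each of the nearer pair of sites in capitals, chr12:80945659-80945682.
Srsf5 exon 1 boundary: accctgtccgGTagGTgagtggca

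Srsf10 changed its last exon. The inclusion form ends in the nearer last exon, chr4:135863729-135865815 (GRCm38, plus strand), and the exclusion form in the farther one, chr4:135867126-135869908, which starts 1310 bases past the end of the former. Each holds its own stop codon. Both forms share 163 complete codons, and the next codon is split across the junction, with its last base in the last exon. The nearer exon then begins 98 codons, for a protein of 262 residues in all, and the farther exon begins 19, for 183. The nearer exon encodes 24 of the 42 adjacent arginine and serine pairs of the long protein, and the farther exon 1 of the 19 in the short protein. The coding parts are printed with their stop codons in capitals, since the choice between them decides how much of the arginine- and serine-rich tail is made.
Srsf10 nearer last exon, coding part: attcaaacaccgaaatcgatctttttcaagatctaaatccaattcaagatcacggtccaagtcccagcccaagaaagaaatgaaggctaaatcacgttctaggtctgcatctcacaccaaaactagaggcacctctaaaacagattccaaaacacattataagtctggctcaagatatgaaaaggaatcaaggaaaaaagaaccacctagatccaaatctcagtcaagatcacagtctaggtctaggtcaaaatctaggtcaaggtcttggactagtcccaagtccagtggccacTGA
Srsf10 farther last exon, coding part: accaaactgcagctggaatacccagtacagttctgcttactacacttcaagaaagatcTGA

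The nearer Srsf10 exon was used at 71.5%, 71.7% and 71.2% in controls 1, 2 and 7 and at 63.6%, 65.5%, 61.8% and 60.4% in mutants 3, 4, 5 and 9. The controls differed by less than 1 point and the mutants lay clear of them. The mean fell from 71.5% ± 0.244 (SD, n = 3) to 62.8% ± 2.20 (SD, n = 4), a difference of −8.64 points (SE 1.89), the smallest among the 9 events and rank 25 of 26 last exon events. The exclusion form, which pools the 2 junctions named below, went from 28.5% to 37.2%. The values do not split these junctions, so the share of the form coding for the short protein is not known. On the logit scale the event did not pass the limma limit (adjusted p = 0.0589). Its farther exon was reached through 2 junctions, the annotated one and one ending 50 bases upstream, which was the single junction among 21 in the members' events that is not an intron of GENCODE M21. The table itself classes the junctions of all 9 events as known, against 150 of its 278 events (54.0%).

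**Figure D4:**
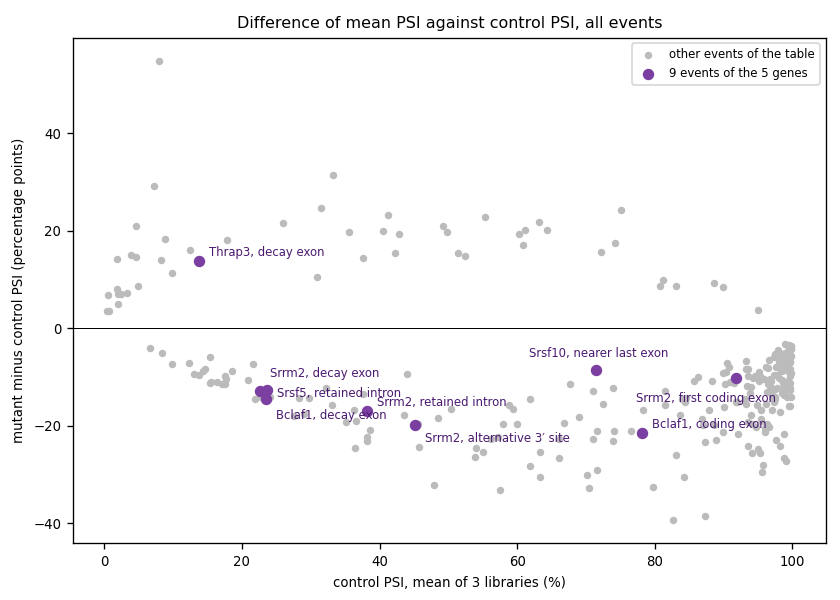
Mutant minus control mean PSI in percentage points against control mean PSI in percent for all 278 events (grey), with the 9 events of Srsf5, Srsf10, Srrm2, Thrap3 and Bclaf1 in purple. The 9 lie within the range of the other events, from −21.5 to 13.8 points, and 5 of the 8 that fell start from a control PSI below 50%.

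Libraries were not ranked alike in all events. Mutant 4 was farthest from the control mean in 5 of the 9 events and mutant 9 nearest in 6, and over all 278 events mutant 4 was farthest in 159 and mutant 9 nearest in 136. The order 4, 3, 5, 9 from low to high held in 4 events, the Bclaf1 decay exon, Srrm2 exon 2 and the Srrm2 pair in the 722-nucleotide intron. The Srsf10 last exon had the reverse pattern, with 9 lowest and 4 highest. For Thrap3, library 5 was farthest and library 3 nearest. The Srsf1 junction, in contrast, had its lowest mutant value in library 4. The depth of each library is unknown, and its part in this order was not tested.

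A pair of short purine-rich motifs often ascribed to SRSF1 binding, GGAGA and GAAGAA, were counted on the transcript strand, with overlaps allowed, in 5 exons: Srrm2 exon 2, the Srrm2 exon from the alternative 3′ splice site, both Bclaf1 exons and the Thrap3 exon. The Srrm2 decay exon is left out of this count, so the counts do not cover every exon of the events. GGAGA occurred once in Srrm2 exon 2, where 47.2% of internal exons of like length hold it, and in none of the other 4. Of exons of like length, 20.9% hold it for the alternative Srrm2 exon, 34.1% and 31.0% for the decay exon and exon 11 of Bclaf1, and 39.3% for the Thrap3 exon. GAAGAA occurred once in these 5 exons, in the Thrap3 exon, beside 17.5% of exons of like length. These are matches of letters in the exons alone and say nothing of binding.

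Among genes of the same kind, the SR proteins and their arginine- and serine-rich partners formed a list of 39. Of these, 6 had listed events, namely the 5 genes described and Srsf1. Past the limma limit 8 of their events were lower and 2 higher, beside 78.8% and 16.9% of all events. None of 15 genes for SR protein kinases and nuclear import, and none of 14 further genes of nuclear speckles and paraspeckles, had a listed event. In a list of 23 exon junction and mRNA export genes, Zc3h14, which encodes a poly(A)-binding zinc finger protein, had 3 events. All were lower past the limma limit, again beside 78.8% of all events. No rate of listing over all genes is at hand, so nothing is read from these lists. Genes without a listed event were not analysed here and cannot be called unchanged.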

How the data were processed

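Total RNA was sequenced by the TruSeq protocol, per the labels' protocols. Bowtie, TopHat, SAMtools, DESeq and the build mm9 are named in the submitters' processing notes without versions, and the series text names JuncBASE. The authors deposited, per the file headers, PSI as a percent per library, group medians in percent, their difference as a score in percentage points, and raw and corrected p-values of JuncBASE and DRIMSeq. Of 21 junctions in the members' events, 20 are introns of GENCODE M21, so coordinates were read as GRCm38. Sequences were taken from the M21 transcripts.

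From these values limma 3.58.1 in R 4.3.3 was fitted to PSI of all 278 events, without covariates, with Benjamini-Hochberg adjustment at 0.05, and was tested on simulated data. Python 3.11.15 with pandas 2.3.3 gave the summaries. Pairs of libraries had identical values in at most 14 events, so no library repeats another and each was entered as a sample. Whether they came from separate animals is not stated. Columns of per-sample values left unused numbered 0. Alternatives were the logit scale, a trended and robust prior, array weights, medians, a stricter limit, and leaving out each library. Every event of the members is named. For likeness, the event with the largest difference of each member was compared with all others by the root mean square difference of their profiles over 7 libraries. Members, lists and motifs were chosen with earlier results of these data known. Some results of the table are not reported here.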

Additional observations from a re-analysis of the deposited data

How the results depend on the processing

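All 9 differences kept their direction in every alternative run. For the 8 events with fully separated groups no alternative could have reversed it, so the kept direction is a description and not support. The limma count of 9 events became 8 on the logit scale, where the Srsf10 last exon did not pass (adjusted p = 0.0589; range over its alternatives 0.00118 to 0.0589), and 7 at an adjusted p of 0.01 or among events with an authors' DRIMSeq corrected p below 0.05. It was 9 without any single library, with array weights and with a trended robust prior. In the main run 95.7% of all events passed. The share of all events under each alternative is not given, so nothing is read from these counts. The median absolute difference of 13.8 points ran from 13.3 to 14.6 when each library was left out and was 13.7 by medians. Events without overlap numbered 8, and 9 without control 7 or mutant 5. Leaving out a library can only remove overlap, so this number could not have fallen. No paired analysis was made because the labels give no pairing between the groups. Depth is unknown, so the counting error of low PSI values, as in mutant 4 of Srsf5, cannot be given.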

Other observations

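Events of other genes that followed the members most closely over the 7 libraries were found by the smallest root mean square difference between profiles of PSI minus the control mean. All profiles share the same libraries and the same contrast, so likeness is a description only. Nearest to the Srsf10 last exon was a cassette exon of G2e3, a ubiquitin ligase gene, at 1.44 points, followed by one of Dsc3, which encodes the desmosomal cadherin desmocollin 3, at 1.59 points. The Dsc3 exon went from a mean of 21.7% in controls to 14.4% in mutants.

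Nearest to the Srsf5 retained intron were an alternative 5′ splice site of Gpbp1 (1.67 points) and a mutually exclusive exon of Calu, the calumenin gene (1.85 points). For the Srrm2 alternative 3′ splice site they were a cassette exon of Cox20, an assembly factor of cytochrome c oxidase (2.10 points), and the alternative 5′ splice site listed under Dnajc7Sfi1 (2.73 points). For Bclaf1 exon 11 they were a last exon of Pvrl2, a nectin gene (4.17 points), and a first exon listed under the joined name Clcn4Hps5 (4.28 points). Both events nearest to the rising Thrap3 decay exon were retained introns, in Zfp692 (3.10 points, from 12.5% to 28.6%) and in Xpot, the exportin of tRNA (3.98 points, from 4.62% to 19.3%).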
